A study of Homo sapiens with 9 samples.

Results

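The genes described here encode the proteins of the cytosolic ribosome. They were chosen by name from the deposited count table: protein-coding genes whose symbol is RPL or RPS followed by a number, together with RPLP0, RPLP1, RPLP2 and RPSA, leaving out the RPS6K kinases and read-through genes. The rule found 89 genes among 60448 rows. Of these, 31 encode proteins of the small subunit and 46 proteins of the large subunit. A further 9 are copies of such genes: RPL3L, RPL10L, RPL22L1, RPL26L1, RPL36AL, RPL39L, RPS27L, RPS4Y1 and RPS4Y2. The last 3 match by their letters and encode no subunit: RPL7L1, a factor of large subunit assembly, RPS19BP1, which binds RPS19, and RPS27AP5. All 89 are referred to as members or ribosomal protein genes. The filter on low counts was passed by 84 of the 89. RPL10L and RPS27AP5 had no read in any library, RPL3L had 0 to 7 reads in a library, and RPS4Y1 and RPS4Y2 did not pass either. FAU, which makes a ribosomal protein of the small subunit as a fusion, is not named by the rule and is given beside the members.

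RNA was sequenced from a line labelled Huh7, a hepatocellular carcinoma line kept in DMEM, in 9 libraries. The groups were 3 libraries of the OPA1 knock-down set N_30, 3 of the knock-down set N_28 and 3 of control. The labels give lentivirus as the means of the knock-down for every library, control included, and do not explain N_30 and N_28. OPA1 is a dynamin-like GTPase that fuses the inner membranes of mitochondria. Nothing in the labels says that the libraries of a group were separate cultures, so p-values measure the spread between libraries, which may be technical.

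A ribosome reads an mRNA in its small subunit and joins amino acids in its large subunit, and its proteins are made in matched amounts from genes scattered over the chromosomes. Most of these mRNAs begin with a cytosine followed by an unbroken run of pyrimidines, the terminal oligopyrimidine (TOP) start. Through this start, mTOR signalling and the protein LARP1 set how strongly the mRNAs are translated and how long they last, while a growing liver cancer cell depends on a large supply of ribosomes.

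The TOP start is what the members share that their names do not show. It was searched in RefSeq's listed gene starts (GRCh38.p14) as C at the first transcribed base with C or T at each of the next 4 bases, on the strand of the gene only. RefSeq's table listed a start for 70 of the 89 members, and 48 of their 86 starts, or 55.8%, had it. Over the 35116 starts listed for all genes the share was 4.07%. Counted by gene, a TOP start stood at 46 of the 62 subunit genes with a listed start (74.2%) and at 2 of the 8 copies and other members (25%). A run beginning within 5 bases of the listed start was found for 69.8% of the members' starts and for 21.1% of all starts. The lines below hold 30 bases around the start, 15 before it and 15 from it, 5′ to 3′ on the gene's strand. They show the subunit genes that passed the test in any comparison, then RPS27 beside its copy RPS27L. Capitals mark the pyrimidine run at the start, and a line with no capitals has no such run.
RPS6 (chr9:19380222-19380251, minus strand): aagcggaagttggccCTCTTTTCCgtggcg
RPS23 (chr5:82278340-82278369, minus strand): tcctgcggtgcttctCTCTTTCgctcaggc
RPS24 (chr10:78033848-78033877, plus strand): cggcgaatcgtggttCTCTTTTCCTCCTTg
RPL41 (chr12:56116618-56116647, plus strand): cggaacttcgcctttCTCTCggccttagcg
RPL10 (chrX:154398362-154398391, plus strand): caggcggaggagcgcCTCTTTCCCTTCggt
RPL12 (chr9:127451392-127451421, minus strand): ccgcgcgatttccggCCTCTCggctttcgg
RPL18 (chr19:48619164-48619193, minus strand): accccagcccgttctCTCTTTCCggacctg
RPL21 (chr13:27251543-27251572, plus strand): cggccccgcctctttCCTTTCggccggaac
RPS27 (chr1:153990747-153990776, plus strand): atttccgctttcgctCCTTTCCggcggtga
RPS29 (chr14:49598696-49598725, minus strand): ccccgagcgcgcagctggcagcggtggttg
RPS27L (chr15:63157463-63157492, minus strand): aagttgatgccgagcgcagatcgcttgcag
RPS29 and RPS27L lack the run at the listed base. RPS27 has it, so this copy and its parent gene differ there. A letter match is a description of the listed start and says nothing of the start used in these cells.

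The OPA1 mRNA, measured in CPM (reads of a gene in a library scaled to 1000000 reads), was lower in all 6 knock-down libraries than in any control library. It stood at 64.2, 63.3 and 65.9 CPM in N_30, 53.3, 55.7 and 57.8 CPM in N_28, and 82.8, 92.9 and 90.5 CPM in control. On the log2 scale N_30 differed from control by -0.46 (SE 0.06, adjusted p = 0.00221) and N_28 by -0.68 (SE 0.06, adjusted p = 1.38e-05), in edgeR's quasi-likelihood model with p-values adjusted by Benjamini-Hochberg. Libraries held 16476389 to 22863328 counts. Of 18 liver markers, summed to 22.0 to 30.5 CPM in N_30, 10.4 to 11.0 CPM in N_28 and 19.7 to 22.5 CPM in control, APOB was at 0 reads in every library, and ALB, HNF4A and GPC3 did not pass 1 CPM in any, so the liver origin in the label is not borne out by these markers.

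The ribosomal protein genes together took about the same share of the reads in all 3 groups. The share was 4.61%, 4.91% and 5.02% of the counts in N_30 libraries 1 to 3, a mean of 4.85% ± 0.212 (SD, n = 3). In N_28 it was 4.76%, 4.61% and 4.73%, a mean of 4.70% ± 0.0806 (n = 3). In control it was 4.60%, 4.78% and 4.78%, a mean of 4.72% ± 0.103 (n = 3). The groups overlapped, and the spread within N_30 was wider than any difference between group means. Taken as pairs by their numbers, N_30 was above control in 3 of 3 pairs, by 0.00596, 0.129 and 0.238 percentage points. A two-sided exact permutation test within pairs gave p = 0.25, the smallest p that 3 pairs allow, so nothing is concluded from it. The pairing is not given by the labels. It was read from these data with earlier calls known, and is uncertain. FAU had 91.9, 92.6 and 102 CPM in N_30, 88.3, 87.1 and 84.9 CPM in N_28, and 81.2, 85.0 and 82.4 CPM in control. FAU was above control in every N_30 library, with a log2 fold change of 0.21 that did not pass (adjusted p = 0.146). The summed CPM of the large subunit over that of the small subunit was 1.65 to 1.66 in N_30, 1.65 to 1.67 in N_28 and 1.67 to 1.68 in control. In bulk RNA, a change in RNA per cell that all genes share cannot be seen, and fewer cells of a type cannot be told apart from less RNA per cell.

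Within N_30 the libraries stood apart from each other more than the groups did. The deviation of a library from the control mean, as the median over the 84 tested members on the log2 scale, was -0.03, 0.07 and 0.09 in N_30 libraries 1 to 3. It was 0.01, -0.03 and -0.03 in N_28 and -0.03, 0.02 and 0.01 in control. In N_30 libraries 2 and 3, 74 and 73 of the 84 genes were above their control mean, but 33 in N_30 library 1. Between N_30 libraries 1 and 3 the chi-square of the counts was 51.2 per member, against 6.73 to 27.7 per member in the other 8 pairs of libraries within groups. Sampling noise alone gives about 1, and the value grows with the counts. N_30 library 1 was also the shallowest, at 16476389 counts, and had the highest share of mitochondrial reads in its group, at 4.28%, against 3.53% and 3.33%. The part of either in its lower ribosomal protein level was not tested.

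**Figure D1:**
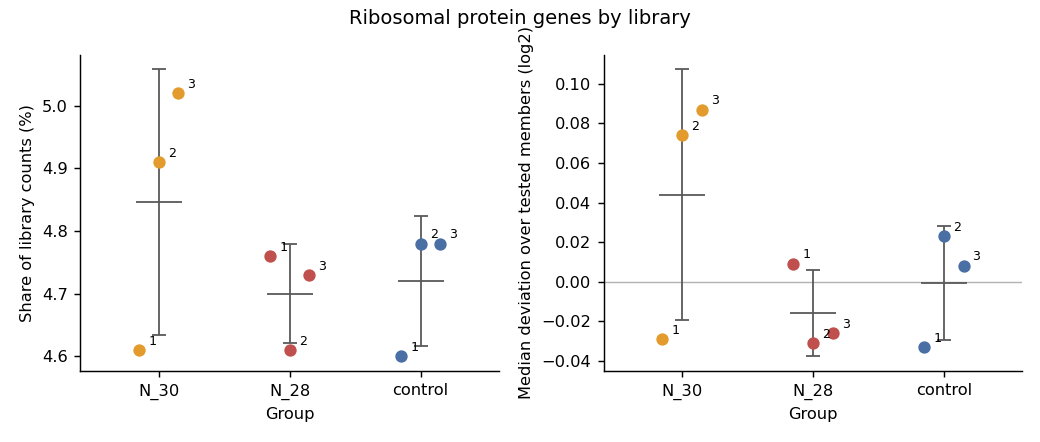
Left, the share of library counts held by the ribosomal protein genes (percent); right, the median log2 deviation of the tested members from the control mean. Points are libraries with their replicate number, and bars are mean and SD (n = 3); axes do not start at 0. The N_30 libraries span 4.61% to 5.02% and enclose all control libraries except control library 1, at 4.60%.

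In control cells the mRNAs were present at unequal levels once mRNA length was taken into account. Levels between genes are given as CPM per kb of a representative mRNA, the one of median length among the gene's protein-coding transcripts. The length used was 569 bases for RPL4 and 745 bases for RPL8. The levels and the order of the genes depend on this choice of transcript, and no other was tried, so the ranks are uncertain. The median over the 77 subunit genes was 867 CPM per kb, with 31 of them at 1000 or more and 7 under 100. RPL8, a protein near the peptidyl transferase centre, was highest at 3677 CPM per kb. RPS16 followed at 2331, RPS2 at 2066 and RPL4 at 1966 CPM per kb. RPLP0, which anchors the stalk that calls in translation factors, stood at 1944 CPM per kb, and its partners RPLP1 and RPLP2 stood at 1367 and 707 CPM per kb. RPL5 and RPL11, which carry 5S rRNA into the large subunit and bind MDM2 when assembly fails, stood at 937 and 538 CPM per kb. RPSA, which is also known as a laminin receptor precursor, stood at 1276 CPM per kb, and RPS27A, made as a ubiquitin fusion, at 530 CPM per kb.

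The lowest subunit genes were those whose mRNA lies over exons of another gene. RPS10 stood at 1.83 CPM per kb, RPL17 at 2.86, RPL36A at 6.46, RPL26 at 15.6, RPS15A at 19.7, RPL23A at 47.7 and RPS23 at 55.8 CPM per kb. Each of these 7 shares at least 24.4% of its mRNA bases with exons of other annotated genes, up to 88.1% for RPL17. Across the 14 subunit genes with an overlap of at least 20%, the median was 82.3 CPM per kb, against 956 CPM per kb for the 63 below that. In the second set the lowest gene was RPS26, at 198 CPM per kb of an mRNA taken as 1140 bases long. The overlapping partners of the 3 lowest are the read-through genes RPS10-NUDT3, RPL17-C18orf32 and RPL36A-HNRNPH2, which had 0 reads in every library. The sources used here do not say how reads that fall in several genes were counted, so the levels of these members are uncertain, and the part of the overlap in them was not tested. Rows of annotated ribosomal protein pseudogenes, whose sequence is close to that of the members, held 0.0340% to 0.0435% of a library's counts.

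**Figure D2:**
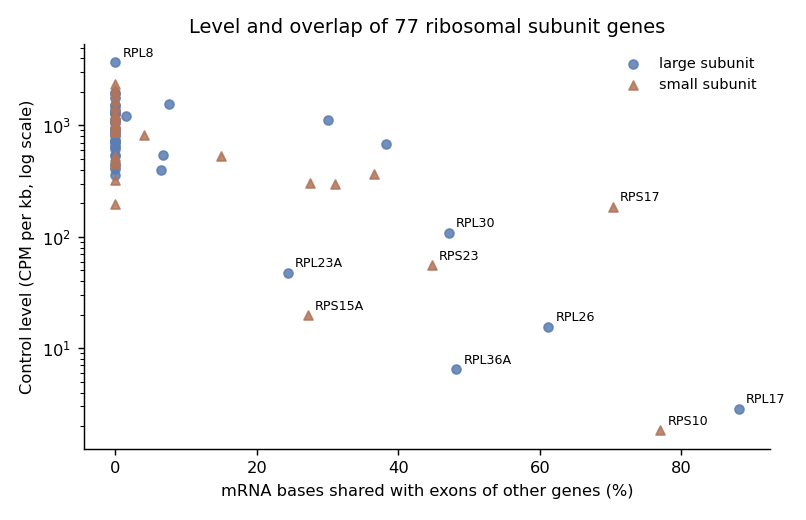
Control level of each subunit gene (CPM per kb, log axis) against the percent of its mRNA bases that are also exon of another gene. Circles are large subunit and triangles small subunit genes. The genes under 100 CPM per kb all lie at 24.4% overlap or more, while RPL10 and RPL22 combine 30% and 38.3% overlap with levels of 1127 and 687 CPM per kb.

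In 3 of 5 pairs the copy was a small part of the pair, and in the other two it was the larger part. The parents RPL26 and RPL36A, whose copies were the larger part, and RPL22, whose copy was the smaller, are overlapped by exons of other genes. RPL22L1 took 3.22% to 4.39% of the summed CPM of RPL22 and RPL22L1 over the 9 libraries. RPL39L took 3.08% to 4.18% of its pair with RPL39, and RPS27L, known as a p53 target, took 4.10% to 5.11% of its pair with RPS27. RPL26L1 took 80.3% to 84.8% of its pair with RPL26 and RPL36AL took 96.8% to 97.8% of its pair with RPL36A. The levels of RPL26 and RPL36A, 15.6 and 6.46 CPM per kb in control, are uncertain, as reads shared by overlapping genes are. It is therefore also uncertain whether these copies are the larger part of their pairs. Of the 5 copies tested, 0 passed in any comparison by edgeR's quasi-likelihood test, 0 had an unadjusted p under 0.05 and DESeq2 called 0. Their log2 fold changes ran from -0.04 to 0.11 in N_30 against control, and from -0.10 to 0.06 in N_28 against control. RPL22L1 stood at 15, 17.4 and 18.6 CPM in N_30, 15.1, 15.7 and 15 CPM in N_28, and 13.3, 18.8 and 15.4 CPM in control, so the groups overlapped.

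Against control, no ribosomal protein gene passed the test in N_30, although most of the fold changes lay slightly above 0. Among the 84 tested, 0 were called by edgeR's quasi-likelihood test at an adjusted p under 0.05, where 0.866% of all tested genes were (0.459% higher and 0.406% lower). DESeq2 also called 0. An unadjusted p under 0.05 was reached by 8 members (9.52%), against 11.4% of all tested genes. The median log2 fold change was 0.05 over the members, with 66 of 84 above 0, while 49.8% of the 15019 tested genes were above 0. By subunit, 28 of the 31 small subunit genes were above 0, with a median of 0.07, as were 34 of the 46 large subunit genes, with a median of 0.04. The 95% interval of the fold change lay wholly within 0.3 on either side of 0 for 77 members (91.7%), against 44.7% of all tested genes. The width of an interval follows the SE, whose median was 0.06 over the members and 0.1 over all tested genes. The 2 shares are therefore not a like comparison of stability.

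The members farthest from 0 in N_30 did not pass. RPS10, a small subunit protein, had 2.29, 1.31 and 1.65 CPM in N_30 and 1.03, 1.07 and 1.43 CPM in control, at a log2 difference of 0.54 with an interval of -0.03 to 1.12 (adjusted p = 0.471). RPS12 had 327, 339 and 369 CPM in N_30 and 276, 310 and 325 CPM in control, with a log2 fold change of 0.19 (SE 0.07, adjusted p = 0.309). RPL36, a large subunit protein, had 212, 232 and 242 CPM in N_30 and 203, 212 and 203 CPM in control, a log2 fold change of 0.15 (SE 0.06, adjusted p = 0.332). For RPS12 and RPL36 the groups did not overlap, though narrowly, as for 7 members in all, each higher in N_30, against 7.53% of all tested genes that were higher without overlap. No member was lower without overlap, where 7.64% of all tested genes were. At the low end stood RPL17 and RPL36A, with log2 fold changes of -0.09 and -0.07, both with overlapping groups.

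The median for N_30 moved with single libraries. It was 0.08 without N_30 library 1, 0.03 without N_30 library 3 and 0.03 without control library 1, and 0 members were called in each case. With the replicate number as a block, since the numbers of N_30 and control are read as pairs, the count over all genes was 424 in place of 130, and that over the members was again 0.

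In N_28 the ribosomal protein genes were centred near 0, and 3 of 84 passed: RPL12 and RPL10 rose and RPS23 fell. That is 3.57% of the members, where 10.2% of all tested genes were called, 4.49% higher and 5.75% lower. The median log2 fold change was -0.02 over the members, and 30 of 84 were above 0, among them 15 of 31 small subunit and 12 of 46 large subunit genes. Fold changes ran from -0.27 to 0.39, and 82 of the 84 (97.6%) lay within 0.2 of 0, against 65.5% of all tested genes. The median SE was 0.06 over the members and 0.1 over all tested genes, and its part in these shares was not tested. An unadjusted p under 0.05 was reached by 9.52% of the members, against 23.9% of all tested genes. These controls are the same libraries as those set against N_30.

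**Figure D3:**
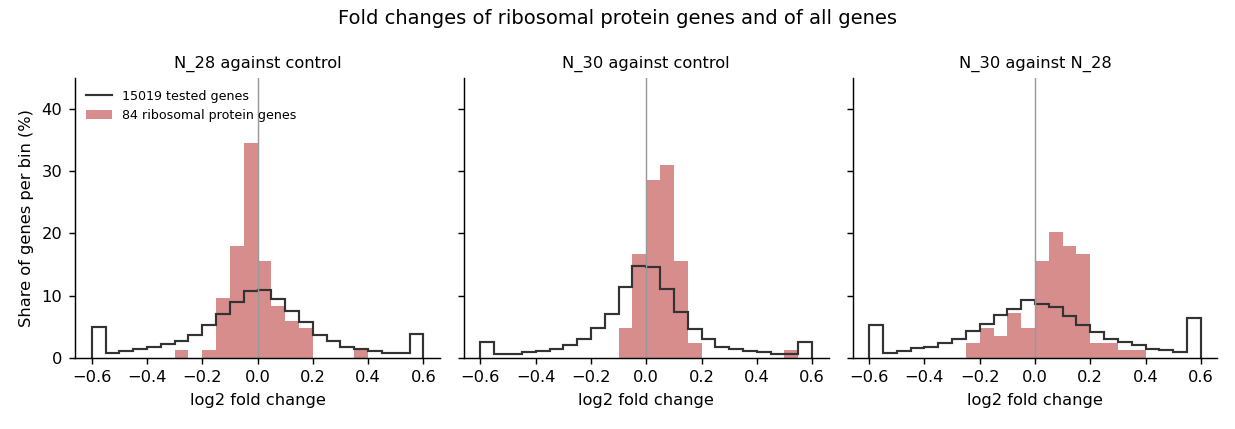
Share of genes (percent) in bins of 0.05 log2 fold change for the ribosomal protein genes (filled) and all tested genes (line) in the 3 comparisons. Genes beyond 0.6 on either side are gathered in the outermost bins. The members form a narrow peak around a median of -0.02, 0.05 and 0.08 in the panels from left to right. Their median SE was 0.06 in each panel, against 0.1 over all tested genes.

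RPL12 lies at the base of the stalk where translation factors dock. It had 568, 541 and 535 CPM in N_28 and 467, 482 and 482 CPM in control, so every N_28 library was above every control library. Its log2 fold change was 0.20 (SE 0.05, adjusted p = 0.0269, edgeR's quasi-likelihood test). RPL10 joins the large subunit late, in the cytoplasm, and reaches towards the site where amino acids are joined. It had 942, 899 and 907 CPM in N_28 and 805, 811 and 795 CPM in control, again without overlap. Its log2 fold change was 0.19 (SE 0.05, adjusted p = 0.0377). RPL10 shares 30% of its mRNA bases with DNASE1L1 on the opposite strand, a gene at 2.27 to 3.67 CPM in the 9 libraries.

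RPS23 sits at the decoding centre of the small subunit. It had 36.0, 40.5 and 39.2 CPM in N_28 and 48.1, 48.0 and 43.8 CPM in control, and all N_28 libraries were below all control libraries. RPS23 differed by -0.27 on the log2 scale (SE 0.08, adjusted p = 0.0499). RPS23 is among the members with low counts, and 44.7% of its mRNA bases are also exon of ATG10 on the opposite strand. ATG10 stood at 4.40 to 5.90 CPM in the 9 libraries, with a log2 fold change of 0.03 in N_28 (adjusted p = 0.922). The 3 calls were not stable to leaving out any 1 library of N_28 or control. Then 0 members were called without N_28 library 1 or 2 or control library 1 or 2, and 1 without N_28 or control library 3. The count over all tested genes also fell, from 1538 to between 967 and 1309. The part of the smaller group in the lost calls was not tested.

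The next members by size in N_28 were not called. RPL21 had 259, 263 and 261 CPM in N_28 and 223, 237 and 228 CPM in control, a log2 fold change of 0.19 (SE 0.06, adjusted p = 0.0589). RPS19BP1 had 57.6, 53.4 and 55.0 CPM in N_28 and 61.8, 61.5 and 62.5 CPM in control, a log2 fold change of -0.16 (SE 0.06, adjusted p = 0.0989). For both the groups did not overlap, as for 9 members higher and 10 lower in N_28, where 14.2% and 14.6% of all tested genes were higher and lower without overlap. RPS10 had the highest value, 0.39, at 1.88, 1.43 and 1.35 CPM in N_28 (adjusted p = 0.422), and RPS15A, also low in counts, stood at -0.12.

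Between the knock-down sets, a smaller share of members than of all tested genes differed by adjusted p, but not by unadjusted p. An unadjusted p under 0.05 in edgeR's quasi-likelihood test was reached by 29 members (34.5%), against 31.1% of all tested genes. In N_30 against N_28, 9 of 84 members passed (10.7%), 6 higher and 3 lower in N_30, where 18.3% of all tested genes were called, 9.38% higher and 8.96% lower. The median log2 fold change was 0.08 and 65 of 84 members were above 0. The small subunit supplied 4 of the higher calls (RPS23, RPS6, RPS24 and RPS29) and the large subunit 1 (RPL41), while the sixth was RPS19BP1. All 3 lower calls (RPL21, RPL18 and RPL12) belonged to the large subunit, whose median was still 0.08, against 0.11 in the small subunit. In either direction, 12.9% of the 31 small subunit and 8.7% of the 46 large subunit genes were called, both under the 18.3% of all tested genes. With so few calls, no difference between the subunits is read from them. Groups did not overlap for 31 of the 84 members higher in N_30, a larger share than the 18.4% of all tested genes. For the 10 of 84 that were lower, the share was smaller than the 18.1% of all tested genes.

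RPS6, the protein that S6 kinases phosphorylate downstream of mTOR, stood at 923, 1017 and 1003 CPM in N_30, against 811, 832 and 824 CPM in N_28. That is a log2 fold change of 0.25 (SE 0.06, adjusted p = 0.00758, edgeR's quasi-likelihood test), and no library of one set reached the other. Control libraries, at 859, 933 and 863 CPM, lay above all of N_28 and overlapped N_30. RPS23 had 55.6, 45.6 and 46.5 CPM in N_30 and 36.0, 40.5 and 39.2 CPM in N_28, a log2 fold change of 0.35 (SE 0.08, adjusted p = 0.00927). RPS19BP1, also called AROS and known to bind the deacetylase SIRT1, had 65.7, 66.8 and 72.0 CPM in N_30 and 57.6, 53.4 and 55.0 CPM in N_28. Its log2 fold change was 0.30 (SE 0.06, adjusted p = 0.00267). RPS23 and RPS19BP1 stayed past the threshold in all 18 alternatives and RPS6 in 17, while the other 6 called members lost the call in 5 to 9 of them.

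RPS24, a small subunit protein whose gene is mutated in some Diamond-Blackfan anaemia, had 535, 549 and 562 CPM in N_30 and 486, 465 and 472 CPM in N_28, at 0.21 (SE 0.06, adjusted p = 0.0183). RPS29, with no TOP start at its listed base, had 172, 166 and 189 CPM in N_30 and 149, 155 and 151 CPM in N_28, at 0.21 (SE 0.07, adjusted p = 0.0447). RPL41, the shortest ribosomal protein, had 718, 757 and 789 CPM in N_30 and 676, 662 and 672 CPM in N_28, at 0.17 (SE 0.05, adjusted p = 0.0371). In each of these the N_30 libraries were all above the N_28 libraries, while control overlapped at least 1 of the sets.

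Among the lower ones, RPL21 had 216, 219 and 246 CPM in N_30 and 259, 263 and 261 CPM in N_28, at -0.20 (SE 0.06, adjusted p = 0.0294). RPL18 had 617, 705 and 684 CPM in N_30 and 772, 740 and 765 CPM in N_28, at -0.18 (SE 0.06, adjusted p = 0.0432). RPL12 had 468, 499 and 493 CPM in N_30 and 568, 541 and 535 CPM in N_28, at -0.17 (SE 0.05, adjusted p = 0.0363). For RPL21, RPL18 and RPL12, N_28 was the set that stood apart, above both N_30 and control. RPL36A and RPS15A, at -0.21 and 0.27, were as far from 0 but low in counts, and did not pass (adjusted p = 0.389 and 0.0739), nor did RPL7L1 at -0.20 (adjusted p = 0.0511). RPL21 has 133 annotated pseudogenes, the assignment of whose reads is uncertain. Leaving out 1 library moved the count of members called between 3 and 11, with 3 without N_28 library 2, 4 without N_28 library 1 or 3, and 5 without N_30 library 2 or 3. Without N_30 library 1 there were 11, all higher. Over the 18 alternatives the call was lost in 9 for RPL18, in 8 for RPL12 and for RPL41, in 7 for RPS29, and in 5 for RPL21 and for RPS24.

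**Figure D4:**
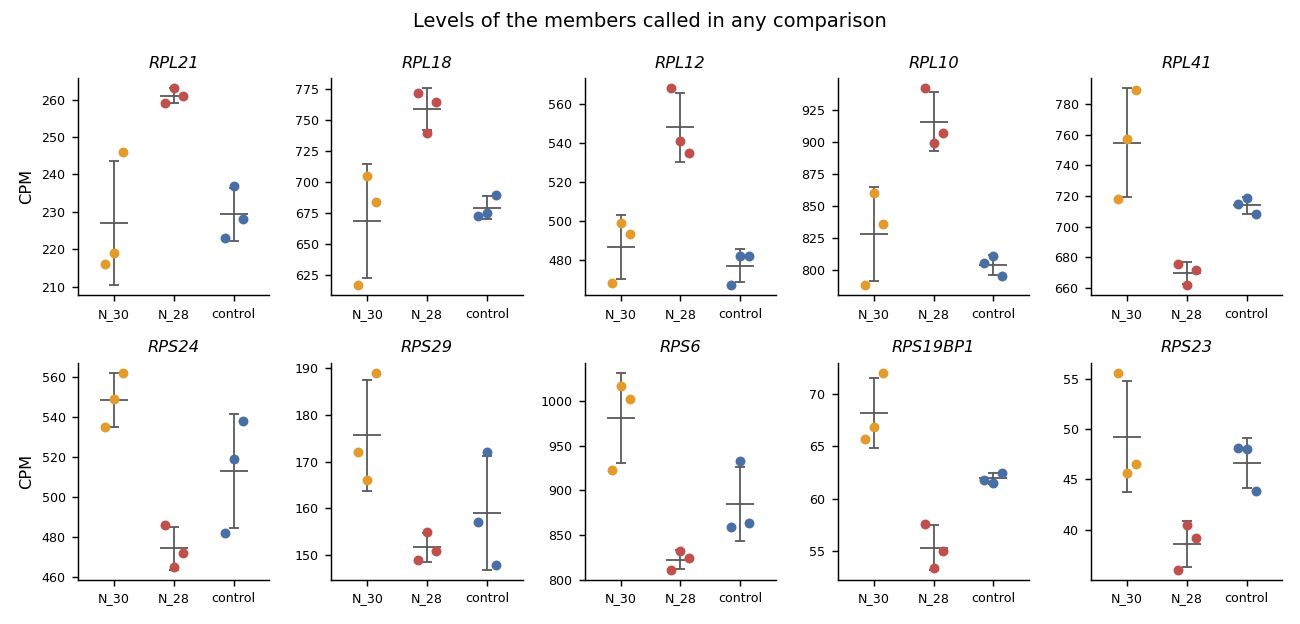
Levels (CPM) of the members called in any comparison, by group, with points for libraries and bars for mean and SD (n = 3); each panel has its own axis, which does not start at 0. Panels run by the difference of N_30 minus N_28, with RPL21 first at -0.20 and RPS23 last at 0.35. RPL10, at -0.15 in that comparison, was called only in N_28 against control.

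The fold changes of the members ran alongside those of other genes at the same place on the chromosome, less closely in N_30 against control than in the comparisons with N_28. Each member was set beside the median log2 fold change of the other tested genes within 5 Mb of it, members left out. Across the 84 members, Pearson's r was 0.154 in N_30 against control (Spearman's rho 0.366), 0.627 in N_28 against control (rho 0.557) and 0.593 in N_30 against N_28 (rho 0.421). By rank, N_30 against control was thus close to N_30 against N_28. RPS10, low in counts, lay far from the other members in N_30 against control, at 0.54 with its neighbours at -0.07, and r without it was not computed. These correlations are descriptions across genes, which are not independent, since close members share neighbours and all share libraries. With 1 library left out at a time, r ran from 0.0687 to 0.34 in N_30 against control, from 0.513 to 0.652 in N_28 against control and from 0.51 to 0.636 in N_30 against N_28.

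Chromosome 19 beyond 30 Mb (GENCODE release 29 on GRCh38) holds 8 members. In N_28 against control these ran from -0.01 to 0.16, with a median of 0.08, beside a median of 0.12 over 590 other genes there. RPL18 was at 0.16 with its neighbours at 0.12, RPL28 at 0.14 with its neighbours at 0.13, and RPS19 at 0.11 with its neighbours at 0.11, while RPS9 was at -0.01 with its neighbours at 0.13. The 4 members on the rest of chromosome 19 had a median of -0.01 and ran from -0.07 to 0.05. In N_30 against N_28 the 8 members had a median of -0.10 and their 590 neighbours -0.17. RPL21, the only member on chromosome 13, was at 0.19 in N_28 against control, with its neighbours at 0.23, and at -0.20 in N_30 against N_28, with its neighbours at -0.30.

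Among the called members, RPS6, RPS19BP1, RPS24, RPL41 and RPL10 moved the same way as their neighbours, while RPS23, RPS29 and RPL12 stood apart from theirs. RPS6 on chromosome 9 was at 0.25 in N_30 against N_28 with its 16 neighbours at 0.32, and RPS19BP1 on chromosome 22 at 0.30 with its neighbours at 0.17. In the same comparison RPS24 was at 0.21 with its neighbours at 0.12, and RPL41 at 0.17 with its neighbours at 0.06. RPL10 was at 0.19 in N_28 against control with its neighbours at 0.08. RPS23 on chromosome 5 was at 0.35 in N_30 against N_28 with its neighbours at 0.03, and at -0.27 in N_28 against control with its neighbours at -0.08. RPS29 on chromosome 14 was at 0.21 in N_30 against N_28 with its neighbours at -0.14. RPL12, elsewhere on chromosome 9, was at 0.20 in N_28 against control while its neighbours were at -0.06. The part of chromosome position in the members' fold changes was not tested.

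**Figure D5:**
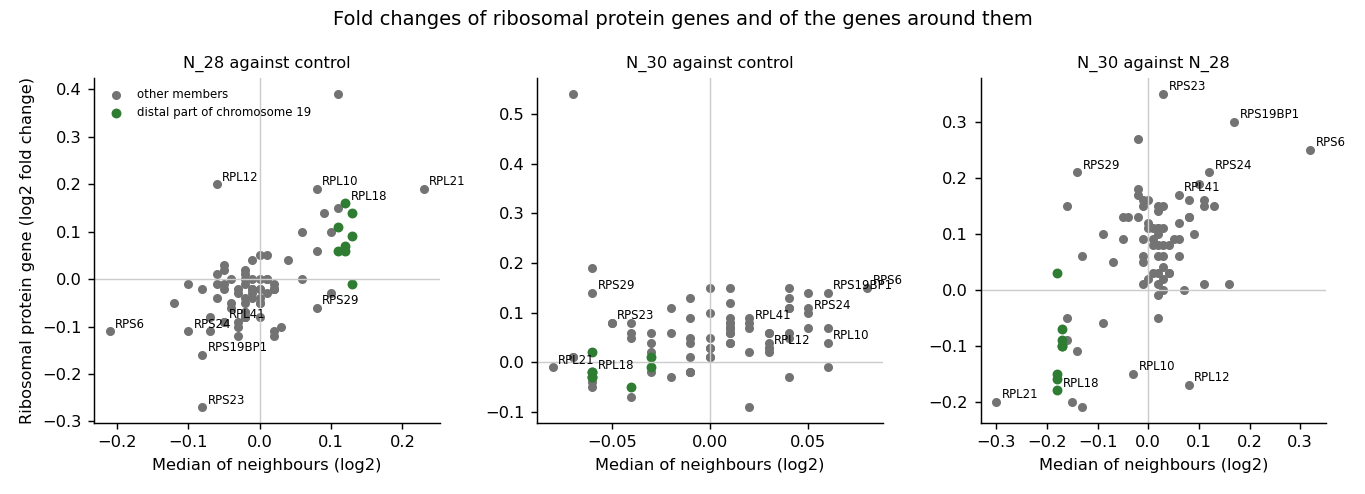
Log2 fold change of each tested member against the median of the other tested genes within 5 Mb, in the 3 comparisons. Green points are the 8 members on chromosome 19 beyond 30 Mb, and the called members are labelled. Points rise together at r of 0.627 and 0.593 in the comparisons with N_28, left and right, while r was 0.154 in the middle. Spearman's rho was 0.557, 0.366 and 0.421 from left to right, and the middle panel holds RPS10 at 0.54, far from the other members.

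Members with a TOP start had medians within 0.02 of those without one. The 47 tested members with a TOP start had a median of 0.06 in N_30 against control, beside 0.05 for the 20 whose listed starts have none. In N_28 against control the medians were -0.01 and -0.02, and in N_30 against N_28 they were 0.08 and 0.06. Over the 84 members, Spearman's rho of the fold change with mRNA GC content was 0.105 in N_30 against control and 0.198 in N_28 against control, and with mRNA length it was -0.202 and -0.0309.

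The wider machinery of ribosome production and translation was read from 10 gene lists. In N_30 against control, 0 of the 230 tested genes of the 10 lists passed by edgeR's quasi-likelihood test, DESeq2 called 0, and 10 had an unadjusted p under 0.05. Over all tested genes the share called was 0.866%, and an unadjusted p under 0.05 was reached by 11.4%, against 4.35% of the list genes. Medians there ran from -0.02 in the p53 arm of the nucleolar stress response to 0.06 in the snoRNA host genes with TOP starts, the list of fusions left out. LARP1, which binds the TOP start, had 573, 614 and 588 CPM in N_30, 656, 609 and 615 CPM in N_28, and 588, 587 and 595 CPM in control. MYC, a driver of ribosomal protein transcription, had 304, 333 and 268 CPM in N_30, 325, 308 and 276 CPM in N_28, and 295, 334 and 297 CPM in control. In N_30 both overlapped control. In N_28 every LARP1 library was above every control library, as for 14.2% of all tested genes, while MYC overlapped control. Neither gene passed in either set. CDKN1A, a p53 target, was at 52.9, 56.3 and 36.0 CPM in N_30, 56.3, 43.1 and 39.7 CPM in N_28, and 39.5, 42.1 and 26.8 CPM in control, and did not pass (adjusted p = 0.397 and 0.251).

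In N_28 against control, 16 of the 230 list genes passed (6.96%), where 10.2% of all tested genes did. Of 41 small subunit assembly factors, 4 rose and 1 fell, with a median of 0.05. TSR2, which carries the ribosomal protein RPS26 to the ribosome, fell to 50.6 ± 1.10 CPM in N_28, against 74.3 ± 0.936 CPM in control (SD, n = 3 each), at -0.56 (adjusted p = 0.000107). RPS26 itself had 219, 233 and 238 CPM in N_28 and 211, 222 and 245 CPM in control. RIOK1, BYSL and UTP14A, which act in pre-ribosomes of the small subunit, rose by 0.34, 0.26 and 0.24 on the log2 scale. Of 45 large subunit assembly factors, 2 rose (RRP1 at 0.43 and RRP15 at 0.35) and 1 fell (RRP1B at -0.46), with a median of 0.06. Of 26 genes of RNA polymerases I and III, 2 rose and 1 fell, with a median of 0.07. The higher ones were GTF3A, the factor for 5S rRNA transcription, at 0.30 and POLR3C at 0.26.

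The other lists held 0 to 2 calls each, beside the 10.2% over all tested genes. The translation inhibitor PDCD4 and the kinase gene RPS6KA3 were at -0.56 and -0.29 and were the 2 calls among 23 mTOR pathway genes. The initiation factor subunits EIF3K and EIF2B3, each the single call of its list of 25 and 24 tested genes, were both at 0.25, and TP53I3, the single call of 16 in the p53 arm, at -0.27. Fibrillarin and its partners, and the snoRNA hosts with TOP starts, had 0 calls of 12 and 0 of 16 by edgeR's quasi-likelihood test and by DESeq2, with 3 and 1 at an unadjusted p under 0.05.

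In N_30 against N_28, 26 of the 230 list genes passed (11.3%), where 18.3% of all tested genes did, 9.38% higher and 8.96% lower. TSR2 was higher in N_30 at 0.55, with 73.9 ± 6.52 CPM in N_30 and 50.6 ± 1.10 CPM in N_28 (SD, n = 3 each, adjusted p = 6.47e-05). With RRP7A, at 0.27, it made 2 higher against 4 lower calls of 41 small subunit factors, led by RIOK1 at -0.41 and BYSL at -0.36. Of 45 large subunit factors RRP1B rose by 0.49 on the log2 scale and 4 fell, among them RRP15 at -0.50, TMA16 at -0.44 and EBNA1BP2 at -0.30. Of the polymerase genes 2 were higher, among them POLR3A at 0.25, and 3 were lower, led by GTF3A at -0.41 and POLR3K at -0.35. FBL, the methyltransferase fibrillarin that marks rRNA, was at -0.24 and the only call of its 12. Among translation factors and other TOP mRNAs EIF3L was at 0.21, TPT1 at -0.27 and EIF3K at -0.17, and EIF2B3 was at -0.30. RPS6KA3 and PDCD4 were at 0.30 and 0.45, LARP4 and AKT1 at -0.27 and -0.19, and TP53I3 at 0.26. The lists were chosen with earlier results of these data known, and the set medians of N_30 against N_28, fusions left out, ran from -0.07 to 0.06, beside 0.08 for the ribosomal protein genes themselves.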

How the data were processed

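The authors deposited 1 table of unnormalized read counts, whole numbers for 9 libraries under human Ensembl identifiers. The submitters' processing notes name the build mm8, a mouse build, although the rows are human. The sources used here name no aligner or counting tool and no use of strand, so reads shared by overlapping genes or close copies are uncertain. Symbols were matched for 56868 of 60448 rows; coordinates, mRNA lengths and overlaps are from GENCODE release 29 (GRCh38), and start sequences from RefSeq (GRCh38.p14).

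Scaling used the trimmed mean of M values, and genes were filtered at a minimum count of 10 (15019 genes left) and fitted over all 9 libraries with edgeR 4.0.16 (R 4.3.3) by its quasi-likelihood test. P-values were adjusted by Benjamini-Hochberg over all tested genes and called under 0.05; the script was tested on simulated data. The standard error (SE) comes from the fold change and its F statistic. CPM are counts scaled to a common library size. Alternatives included DESeq2 1.42.0, other scalings and filters, a replicate block and leaving out libraries.

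Within a group, the chi-square between libraries was 3.57 to 12.4 per gene, so none was taken as a copy of another. Same-numbered libraries of N_30 and control deviated together, with correlations of 0.122, 0.169 and 0.306. Differently numbered libraries of N_30 and control ran from -0.253 to 0.103. Between N_28 and N_30, however, differently numbered libraries reached 0.166, so the pairing of N_30 and control is uncertain. The numbers of N_30 and control are taken as pairing them, from the data and with earlier calls known. Among same-numbered libraries of N_30 and N_28 the lowest correlation was -0.0253, and for N_28 and control it was -0.0588. The members, lists and tests were chosen with earlier results of these data known. Genes named were the members called, the 3 highest and 3 lowest of each comparison, the highest and lowest by level, copies with their parents, members of set roles, and up to 4 called genes of each list. Some genes that this rule picks are not reported here. FAU, RPS26, RPS9, RPS19, RPL28, LARP1, MYC, CDKN1A and other genes beyond these were named after their values were seen.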

Additional observations from a re-analysis of the deposited data

Results flagged for a closer look

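In N_30 against N_28 the test of the difference between the knock-down sets was passed by 9 of the genes chosen by name, 8 of them subunit genes and the other RPS19BP1, with a log2 difference of N_30 minus N_28 as follows. It was 0.35 for RPS23, 0.30 for RPS19BP1, 0.25 for RPS6, 0.21 for RPS24, 0.21 for RPS29 and 0.17 for RPL41. It was -0.20 for RPL21, -0.18 for RPL18 and -0.17 for RPL12.

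The same test was passed by named genes of the other lists. Higher in N_30 were TSR2 at 0.55, RRP1B at 0.49, PDCD4 at 0.45, RPS6KA3 at 0.30, RRP7A at 0.27, TP53I3 at 0.26, POLR3A at 0.25 and EIF3L at 0.21. Lower in N_30 were RRP15 at -0.50, TMA16 at -0.44, GTF3A and RIOK1 at -0.41, BYSL at -0.36, POLR3K at -0.35, and EBNA1BP2 and EIF2B3 at -0.30. Also lower were TPT1 and LARP4 at -0.27, FBL at -0.24, AKT1 at -0.19 and EIF3K at -0.17. The calls of EIF3K, AKT1 and POLR3K were lost in 12, 8 and 7 of 18 alternatives.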

How the results depend on the processing

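In N_30 against control, 0 members were called in all 18 alternatives, and the median kept its sign (0.03 to 0.08). The count over all genes was 257 with DESeq2 in place of 130, 523 without a filter, 424 with the replicate block and 58 to 180 without 1 library. In N_28 against control, 0 to 4 members were called without 1 library and 0 without the libraries numbered 3, an alternative chosen after seeing the data. The median there was -0.04 to -0.01 and the count over all genes 967 to 1712 without 1 library. In N_30 against N_28, the members called were 15 with DESeq2, 14 with a mean of at least 5 CPM, 20 with the replicate block, 3 to 11 without 1 library and 3 without the libraries numbered 3. The numbers of N_30 and N_28, and of N_28 and control, are only shared, so this block result is not read as pairing. The block gave 4 members in N_28 against control. Of 18 alternatives, the call in N_28 against control was lost in 7 for RPL10, RPS23, EIF2B3 and TP53I3, in 6 for RPL12, in 4 for BYSL, POLR3C and UTP14A, in 3 for RIOK1, GTF3A and RRP15, in 2 for RPS6KA3 and in 1 for EIF3K. In N_30 against N_28 the call of list genes was lost in 12 for EIF3K, 8 for AKT1, 7 for POLR3K, 6 for EIF3L and LARP4, 5 for TP53I3, 4 for EBNA1BP2, 3 for PDCD4 and TMA16, 2 for POLR3A and TPT1, and 1 for RRP7A. The causes were not tested.

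The share of counts was 5.19% in N_30, 5.03% in N_28 and 5.07% in control when mitochondrial rows and the top 10 rows were left out of the total, by construction higher. Values near 0 changed sign in N_30 against control: without 1 library, RPL17 ran from -0.29 to 0.18 (0.03 without N_30 library 3) and RPL36A from -0.17 to 0.01, and RPL36A was 0.00 without the libraries numbered 3. The cause was not tested. With 3 libraries a group and a common coefficient of variation of 0.0783, the median SE of a member was 0.06, and low members such as RPS10, RPL17 and RPL36A had an SE of 0.15 to 0.27.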
